A study of Mus musculus with 8 samples.

Results

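This report describes 10 genes of the Notch pathway in the cervical loop of the mouse incisor: the receptors *Notch1*, *Notch2* and *Notch3*, the ligands *Jag1*, *Jag2* and *Dll1*, and the target genes *Hes1*, *Hey1*, *Hey2* and *Heyl*. They were taken by name from a table of 23358 genes, all 10 were found, and all 10 were among the 14148 genes tested. The cervical loop is the growing end of the incisor, and at 4 weeks of age it was cut into 2 parts, the stem cell region (CLH) and the region of the progenies of these cells (CLT). The cKO mice carried floxed *Med1* alleles and Cre recombinase under the *Krt14* promoter, which is active in epithelial cells, so that non-epithelial cells of the tissue keep *Med1*. *Med1* encodes a subunit of the Mediator complex, which links transcription factors to RNA polymerase. The Ctrl mice were littermates without Cre, on the same C57BL/6 background. Each of the 4 groups (Ctrl CLH, cKO CLH, Ctrl CLT and cKO CLT) had 2 libraries, named 1 and 2 after their replicate numbers and labelled as dental epithelial cells. The study calls them biological duplicates, used 2 litters and pooled several cervical loop tissues in a group. Which litter or animals a library came from is not given in the sources used here, and the p-values measure the spread between these libraries.

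Notch receptors sit in the cell membrane and are engaged by Jagged and Delta-like ligands on neighbouring cells. Cleavage by ADAM proteases and then by γ-secretase frees the intracellular domain, which enters the nucleus and joins the DNA-binding protein RBPJ and a Mastermind co-activator to turn on *Hes* and *Hey* genes, themselves transcriptional repressors. In the incisor the pathway is known from the cell layer next to the enamel-forming ameloblasts, and in skin from the differentiation of suprabasal epidermis and of the hair follicle.

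RefSeq promoter windows on GRCm38.p6 (mm10), from 250 bases before to 50 bases after each transcription start, were at hand for 7 of the 10 genes. No entry was matched for *Hes1*, *Hey1* and *Heyl*. The windows of *Notch1* (chr2:26503773-26504072, minus strand) and *Notch2* (chr3:98013288-98013587, plus strand) are shown because these 2 receptors stood on opposite sides of Ctrl in cKO CLT. Capitals mark the GC box GGGCGG, the letters bound by Sp family factors, searched on both strands, with overlapping matches counted.

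Notch1: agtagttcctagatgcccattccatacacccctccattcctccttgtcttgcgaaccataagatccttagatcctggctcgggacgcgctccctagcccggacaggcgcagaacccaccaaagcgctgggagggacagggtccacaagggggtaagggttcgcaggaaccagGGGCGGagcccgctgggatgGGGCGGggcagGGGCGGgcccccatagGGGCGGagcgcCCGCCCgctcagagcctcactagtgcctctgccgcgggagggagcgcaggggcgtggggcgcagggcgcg
Notch2: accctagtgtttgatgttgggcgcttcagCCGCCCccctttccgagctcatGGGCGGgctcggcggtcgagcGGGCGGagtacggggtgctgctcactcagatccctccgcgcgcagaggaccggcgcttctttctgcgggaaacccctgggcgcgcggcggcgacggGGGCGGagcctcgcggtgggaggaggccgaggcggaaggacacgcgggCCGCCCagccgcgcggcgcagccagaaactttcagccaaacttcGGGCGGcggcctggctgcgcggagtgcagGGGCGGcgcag

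*Notch1* held 5 such matches, all within 78 bases before the start, and *Notch2* held 7, spread from 221 bases before to 40 bases after it. Of all 32851 promoter windows, 35.7% held at least 1. Both receptor windows were rich in G and C, at 68.3% and 73.0% of their bases, against a median of 52.7% over all windows. The window of the target *Hey2* (chr10:30842734-30843033, minus strand) is shown because among the 7 matched genes it alone held the core letters bound by RBPJ, TGGGAA, marked in capitals on either strand.

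Hey2: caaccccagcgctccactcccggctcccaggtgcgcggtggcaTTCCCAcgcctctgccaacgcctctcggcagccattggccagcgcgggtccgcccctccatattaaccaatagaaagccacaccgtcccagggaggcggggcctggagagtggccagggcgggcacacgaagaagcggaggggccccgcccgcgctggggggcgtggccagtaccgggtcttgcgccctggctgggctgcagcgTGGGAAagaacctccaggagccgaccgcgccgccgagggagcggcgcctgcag

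It held 2 of them, which began 207 bases and 3 bases before the start, and 25.6% of all windows held at least 1. Of the letters bound by Hes and Hey repressors, CACGTG was in none of the 7 genes' windows and in 7.15% of all windows. CACNAG was in windows of *Notch1*, *Notch2*, *Notch3* and *Dll1* and in 42.5% of all. *Dll1* had more than 1 window, and only the upstream one (chr17:15376883-15377182, minus strand) held CACNAG. These are matches of letters and were not tested as binding sites.

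The libraries held 22330512 to 28651106 reads on genes, and 3 facts of them touch the results. First, the library labelled Ctrl CLT 1 stood apart from Ctrl CLT 2: 34.6% of the tested genes differed by more than 1.5-fold between these 2, against at most 1.12% within any other group. The summed RPKM of 7 hair shaft and inner root sheath markers was 3481 and 8.72 for Ctrl CLT 1 and 2, while the cKO CLT libraries held 10325 and 11333, and no CLH library exceeded 5.13. For 6 skeletal muscle markers the Ctrl CLT libraries held 648 and 48.6 RPKM and the cKO CLT libraries 1776 and 1956 RPKM. For 6 cornified epidermis markers they held 424 and 5.64 RPKM and 1216 and 1227 RPKM. In all 3 lists every marker was above both Ctrl CLT libraries in both cKO CLT libraries, and every marker was higher in Ctrl CLT 1 than in Ctrl CLT 2. Basal epithelium markers (6) summed to 1426 and 825 RPKM in Ctrl CLT, against 1897 and 2161 RPKM in cKO CLT. Of these 6, 4 were above both Ctrl libraries in cKO and 2, *Itga6* and *Itgb4*, were below. Leukocyte markers (5) summed to 116 and 159 RPKM, against 95.6 and 90.5 RPKM, with 1 above and 4 below. The 3 erythroid markers found summed to 6.85 and 6.05 RPKM, against 4.28 and 5.12 RPKM, with 0 above and 1 below. Second, 7 ameloblast markers summed to 84584 and 37392 RPKM in Ctrl CLT and to 19.7 and 15.8 RPKM in cKO CLT, with all 7 lower in cKO, so the cKO CLT libraries held little of the defining genes of enamel-forming cells. Although labelled as epithelial, the 8 libraries also held genes listed as odontoblast and bone markers, at a sum of 1016 to 4027 RPKM. In cKO CLT that sum was nearly all *Col1a1* and *Col1a2*, with *Dspp*, *Dmp1*, *Bglap* and *Ibsp* at or near 0. Last, *Med1* itself was not lower in the CLT libraries labelled cKO, at 9.15 and 8.96 RPKM against 4.83 and 8.71 in Ctrl. In CLH it was 7.10 and 7.03 against 7.71 and 9.12. Only some exons of *Med1* were floxed, while these values count reads over the whole gene. Reads on the floxed exons alone were not looked at. In bulk tissue, fewer cells of a type and less RNA per cell cannot be told apart, and the part that a change of tissue makeup has in each CLT result below was not tested.

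In CLT the receptors of cKO libraries stood on both sides of Ctrl: *Notch1* and *Notch3* were higher in both cKO libraries than in either Ctrl library, and *Notch2* was lower. *Hey1*, the most abundant target in the other 6 libraries, was 29.3-fold lower by the means of RPKM, *Hey2* was also lower, *Heyl* was higher, and *Hes1* overlapped. With only the 4 CLT libraries in the fit, none of the 10 genes passed the adjusted threshold of 0.05 (limma, over all 14148 genes, of which 1.75% passed). At an unadjusted p under 0.05 there were 5 of the 10, against 36.2% of all genes. With voom on the recovered reads 0 members passed, and so did 0.00% of all genes. With Ctrl CLT 1 or Ctrl CLT 2 left out, the spread came from the cKO CLT libraries alone and held no variation between Ctrl libraries. The calls of those fits are not counted, and their differences are given below. When all 8 libraries shared 1 estimate of the spread, 6 of the 10 passed, *Notch1*, *Notch3* and *Heyl* higher and *Notch2*, *Hey1* and *Hey2* lower, and 43.7% of all genes passed. The groups did not overlap for 4 members that were higher, against 37.2% of all genes, and for 3 that were lower, against 35.1%, so that the members separated about as often as other genes did. The study placed *Notch1*, *Notch2*, *Jag1* and *Hey1* in gene lists drawn from these same samples, so their directions are not independent evidence.

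**Figure D1:**
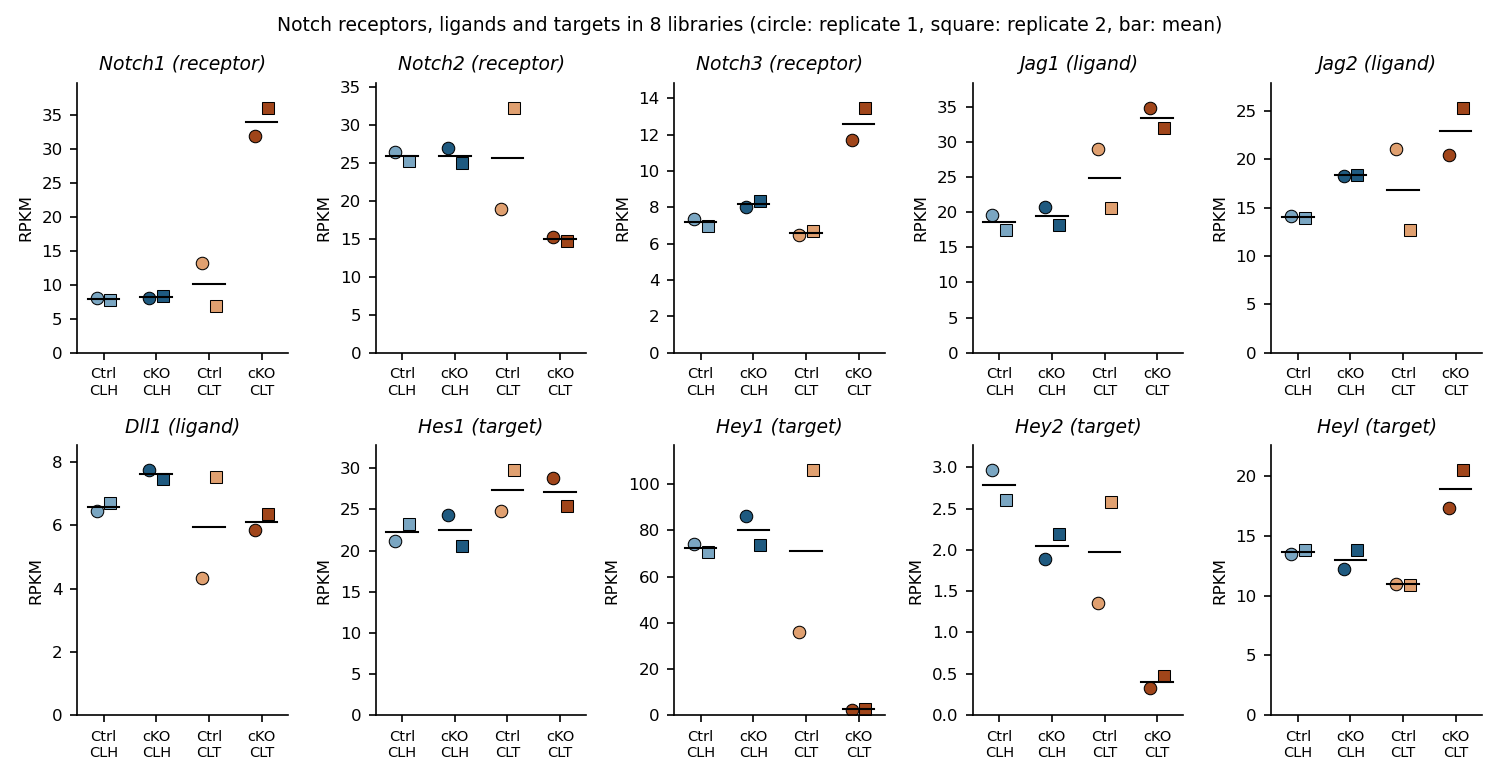
RPKM (read counts scaled for the length of the gene and the depth of the library, on linear axes from 0) of the 10 Notch genes in each of the 8 libraries, by group, with the group mean as a bar. *Notch1* lies between 32.0 and 36.1 in cKO CLT and at most 13.2 in the other 6 libraries, *Hey1* lies at 2.28 and 2.58 in cKO CLT, and for 8 of the 10 genes the 2 Ctrl CLT libraries lie farther apart than those of any other group.

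*Notch1* (chr2:26457902-26503822, minus strand, mm10 as deposited), the receptor best known in skin as a driver of epidermal differentiation, was at 13.2 and 6.89 RPKM in Ctrl CLT and at 32.0 and 36.1 RPKM in cKO CLT. Both cKO libraries were above both Ctrl libraries, and Ctrl CLT 1 lay between Ctrl CLT 2 and the cKO libraries. The group means were 10.1 ± 4.49 RPKM (SD, n = 2) and 34.0 ± 2.92 RPKM (SD, n = 2), a 3.38-fold difference. On the log2(RPKM + 1) scale, which is used for every difference below, cKO minus Ctrl was 1.72 (SE 0.33, 95% interval 0.80 to 2.65, limma adjusted p = 0.0721), and it was 2.15 with Ctrl CLT 1 left out and 1.30 with Ctrl CLT 2 left out. Of the 14232 exon bases in its GENCODE M21 gene model, 9.76% also lie in exons of 2 genes on the other strand, *0610009E02Rik* and *Gm13568*. Their reads cannot be told apart where strand was not used. The deposited length of *Notch1* was 9489 bases, so the share among the bases counted may differ.

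*Notch2* (chr3:98013538-98150367, plus strand), the most abundant of the 4 receptor genes in every CLH and Ctrl CLT library, was at 19.0 and 32.3 RPKM in Ctrl CLT and at 15.3 and 14.7 RPKM in cKO CLT. Both cKO libraries were lower, though the gap to Ctrl CLT 1 was small beside the gap between the 2 Ctrl libraries. The difference was -0.69 (SE 0.29, 95% interval -1.5 to 0.12, limma adjusted p = 0.175), or -1.06 with Ctrl CLT 1 left out and -0.32 with Ctrl CLT 2 left out. Its interval holds 0, and leaving out either Ctrl library moved the value by more than 1.5 times.

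*Notch3* (chr17:32120893-32166852, minus strand), known from the mural cells of blood vessels, was at 6.49 and 6.72 RPKM in Ctrl CLT and at 11.7 and 13.5 RPKM in cKO CLT. The 2 Ctrl libraries lay close together, below both cKO libraries. The difference was 0.84 (SE 0.16, 95% interval 0.39 to 1.29, limma adjusted p = 0.0725), and it hardly moved with the Ctrl library used (0.81 with Ctrl CLT 1 left out and 0.86 with Ctrl CLT 2 left out). The summed RPKM of 6 mural markers was 137 and 219 in the Ctrl libraries of CLT and 134 and 144 in the cKO libraries, with 1 of the 6 above and 4 below both Ctrl libraries in cKO. Of the 8089 exon bases in the *Notch3* gene model, 6.03% lie in exons of another gene, the antisense *Gm17276*, and the deposited length was 7943 bases.

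By share, *Notch1* made up 53.3% and 55.0% of the summed *Notch1* to *Notch4* RPKM in cKO CLT, against 32.7% and 14.2% in Ctrl CLT and 18.0% to 19.0% in the 4 CLH libraries. *Notch2* made up 25.5% and 22.3% in cKO CLT, against 47.0% and 66.6% in Ctrl CLT, so that the 2 changed places as the leading receptor transcript. *Notch4*, a receptor of endothelial cells, made up 1.67% and 2.10% in cKO CLT and 4.21% and 5.32% in Ctrl CLT. The summed receptor level was 60.0 and 65.7 RPKM in cKO CLT and 40.4 and 48.5 RPKM in Ctrl CLT. These shares describe transcripts over all cells of the tissue.

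**Figure D2:**
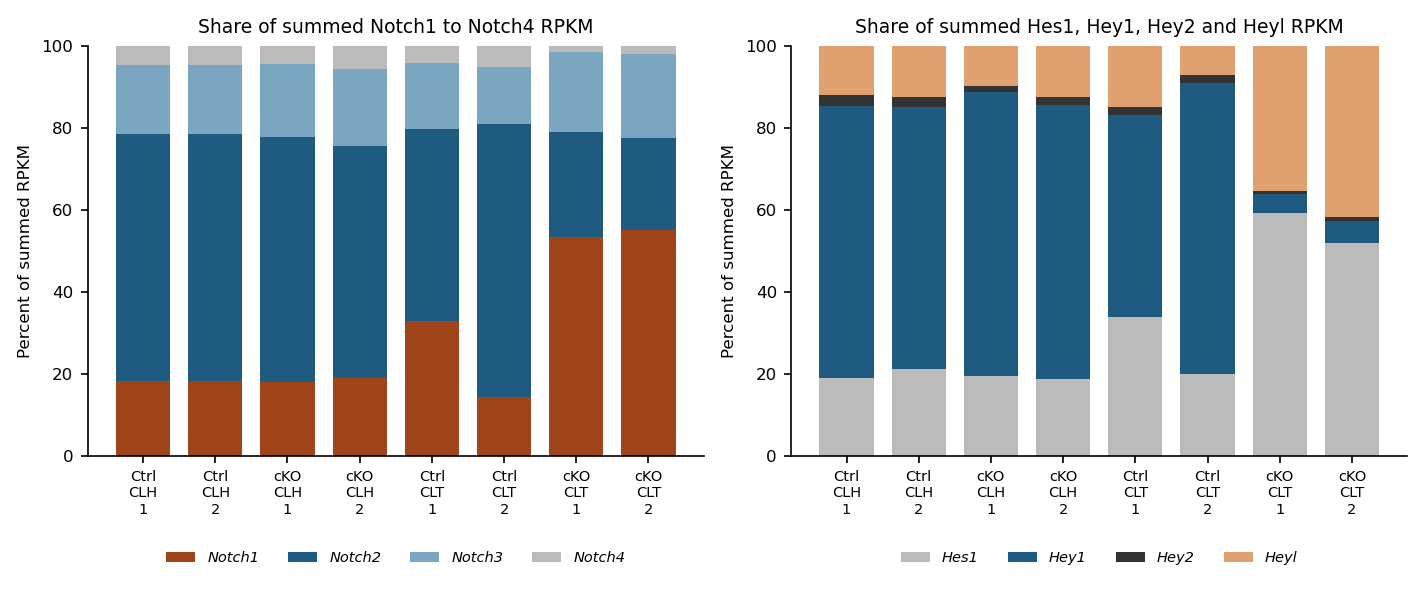
Stacked bars of the share (percent of summed RPKM) of each receptor gene among *Notch1* to *Notch4* (left) and of each target gene among *Hes1*, *Hey1*, *Hey2* and *Heyl* (right) in each library. *Notch1* takes 53.3% and 55.0% of the receptor sum in the cKO CLT libraries, where *Hey1* takes 4.67% and 5.26% of the target sum.

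The ligands showed smaller differences. *Jag1* (chr2:137081451-137116520, minus strand), the most abundant ligand in 7 of the 8 libraries, was at 29.0 and 20.6 RPKM in Ctrl CLT and at 34.9 and 32.0 RPKM in cKO CLT. The cKO libraries were higher, with Ctrl CLT 1 closer to them than to Ctrl CLT 2. The difference was 0.43 (SE 0.22, 95% interval -0.16 to 1.03, limma adjusted p = 0.223), or 0.67 with Ctrl CLT 1 left out and 0.20 with Ctrl CLT 2 left out. *Jag2* (chr12:112908590-112929495, minus strand), a ligand known from the dental and oral epithelium, was at 21.04 and 12.7 RPKM in Ctrl CLT and at 20.5 and 25.4 RPKM in cKO CLT, and the groups overlapped. Its difference was 0.46 (SE 0.30, 95% interval -0.36 to 1.28, limma adjusted p = 0.317), or 0.80 with Ctrl CLT 1 left out and 0.11 with Ctrl CLT 2 left out. *Dll1* (chr17:15367354-15375823, minus strand), a Delta-like ligand, was at 4.34 and 7.54 RPKM in Ctrl CLT and at 5.87 and 6.35 RPKM in cKO CLT, where both cKO libraries lay between the Ctrl libraries. Its difference was 0.074 (SE 0.29, 95% interval -0.72 to 0.87, limma adjusted p = 0.863), and its direction depended on the Ctrl library (-0.26 with Ctrl CLT 1 left out and 0.41 with Ctrl CLT 2 left out). Exons of the non-coding *A930024N18Rik* on the other strand hold 20.5% of the 4219 exon bases in the *Dll1* gene model, whose deposited length was 3428 bases.

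Among the targets, *Hey1* (chr3:8663359-8667038, minus strand) showed the largest difference of the 10 genes. It was at 36.1 and 106 RPKM in Ctrl CLT and at 2.28 and 2.58 RPKM in cKO CLT, where the fewest reads behind a value were 141. Both cKO libraries were far below both Ctrl libraries, which themselves differed severalfold. The means were 71.2 ± 49.6 RPKM (SD, n = 2) and 2.43 ± 0.210 RPKM (SD, n = 2), 29.3-fold lower in cKO. The log2 difference was -4.20 (SE 0.56, 95% interval -5.74 to -2.66, limma adjusted p = 0.0601), or -4.97 with Ctrl CLT 1 left out and -3.44 with Ctrl CLT 2 left out, so it missed the threshold with both Ctrl libraries in the CLT fit and passed it with either left out, as did 69.5% and 52.1% of all genes. Those fits held a lone Ctrl library, and their spread came from the cKO CLT libraries alone. Passing in them is therefore not counted as evidence for *Hey1*. The summed RPKM of 6 odontoblast and bone markers was 2813 and 3300 in the Ctrl libraries of CLT and 1016 and 1172 in the cKO libraries, with 5 of the 6 lower in cKO. In cKO CLT that sum was nearly all of the collagen genes *Col1a1* and *Col1a2*, while the defining markers were at or near 0. *Dspp*, the dentin matrix gene of odontoblasts, was at 543 and 644 RPKM in the Ctrl libraries and 0.145 and 0.174 RPKM in the cKO libraries. *Bglap*, the osteocalcin gene of bone-forming cells, was at 490 and 397 RPKM against 0.686 and 0.411 RPKM, *Dmp1* at 15.6 and 17.9 RPKM against 0.0517 and 0.0664 RPKM, and *Ibsp* at 22.4 and 75.6 RPKM in Ctrl with no read in either cKO library. The part of these cells in the *Hey1* value was not tested.

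*Hey2* (chr10:30832359-30842783, minus strand), a related repressor and the least abundant member, was at 1.36 and 2.58 RPKM in Ctrl CLT and at 0.324 and 0.478 RPKM in cKO CLT, the lowest value resting on 23 reads. Neither cKO library reached the lower Ctrl library. The difference was -1.06 (SE 0.28, 95% interval -1.83 to -0.29, limma adjusted p = 0.0932), or -1.36 with Ctrl CLT 1 left out and -0.76 with Ctrl CLT 2 left out. *Heyl* (chr4:123233556-123249870, plus strand), another *Hey* family repressor, was at 10.97 and 10.9 RPKM in Ctrl CLT and at 17.3 and 20.5 RPKM in cKO CLT. The Ctrl libraries were nearly equal and both cKO libraries were higher. The difference was 0.73 (SE 0.16, 95% interval 0.29 to 1.18, limma adjusted p = 0.0788), or 0.74 with Ctrl CLT 1 left out and 0.73 with Ctrl CLT 2 left out. *Hes1* (chr16:30065357-30067796, plus strand), a repressor induced by Notch in many tissues, was at 24.8 and 29.8 RPKM in Ctrl CLT and at 28.9 and 25.4 RPKM in cKO CLT, and the groups overlapped. Its difference was -0.0055 (SE 0.17, 95% interval -0.48 to 0.47, limma adjusted p = 0.983).

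Among the transcripts of the 4 target genes, *Hey1* made up 49.3% and 71.0% of the summed RPKM in Ctrl CLT, against 4.67% and 5.26% in cKO CLT. *Hes1* went from 33.9% and 19.9% of the sum to 59.2% and 51.9%, and *Heyl* from 15.0% and 7.30% to 35.5% and 41.9%, so that *Hes1* and *Heyl* were the leading target transcripts of cKO CLT.

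**Figure D3:**
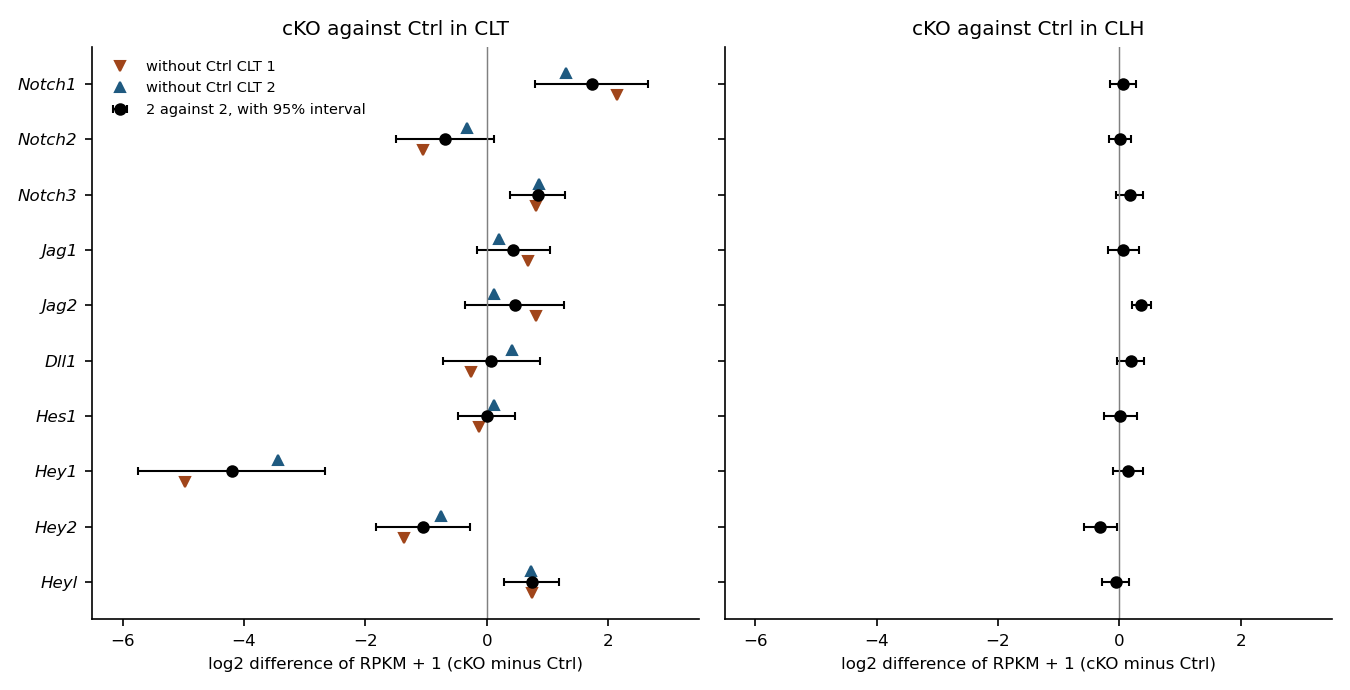
Difference of log2(RPKM + 1), cKO minus Ctrl, for each of the 10 genes in CLT (left) and CLH (right), with the 95% interval from limma and, in CLT, the value with each Ctrl CLT library left out. In CLT the intervals of *Notch1*, *Notch3*, *Hey1*, *Hey2* and *Heyl* leave out 0, and in CLH all 10 values lie between -0.32 and 0.36.

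In CLH the same genes lay close together in both genotypes. None of the 10 passed the adjusted threshold, and 0.00% of all genes did (limma, with 1027 genes at an unadjusted p under 0.05, and 0 genes with voom). Among the receptors, *Notch1* was at 8.07 and 7.70 RPKM in Ctrl CLH and 8.11 and 8.43 RPKM in cKO CLH, a difference of 0.061 (SE 0.082, 95% interval -0.16 to 0.28, limma adjusted p = 0.852). *Notch2* was at 26.5 and 25.3 RPKM and 27.0 and 25.0 RPKM, a difference of 0.0036 (SE 0.067, 95% interval -0.18 to 0.18, limma adjusted p = 0.995). The groups of *Notch1* just failed to overlap and those of *Notch2* overlapped. *Notch3* was at 7.34 and 6.99 RPKM in Ctrl and 8.01 and 8.33 RPKM in cKO.

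The largest member difference in CLH was that of *Jag2*, a Notch ligand, at 14.2 and 14.0 RPKM in Ctrl and 18.3 and 18.4 RPKM in cKO. Both cKO libraries were higher, by 0.36 (SE 0.061, 95% interval 0.20 to 0.52, limma adjusted p = 0.688). *Hey2* was at 2.97 and 2.601 RPKM in Ctrl and 1.90 and 2.19 RPKM in cKO, lower in both cKO libraries, with a difference of -0.32 (SE 0.10, 95% interval -0.58 to -0.047, limma adjusted p = 0.688). These 2 were the members with an unadjusted p under 0.05, against 7.26% of all genes. *Hey1* was at 74.0 and 70.4 RPKM in Ctrl and 86.2 and 73.8 RPKM in cKO, and the groups overlapped. *Jag1*, *Hes1* and *Heyl* also overlapped, and *Dll1* did not, at 6.44 and 6.71 RPKM in Ctrl and 7.76 and 7.48 RPKM in cKO. In all, 4 members were higher in cKO without overlap, against 19.9% of all genes, and 1 was lower, against 18.8%. In neither CLH group did any of the hair, muscle or cornified lists reach the level of Ctrl CLT 1.

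An interaction fitted to the 8 libraries asked whether the genotype difference itself depended on the region. It passed for 4 of the 10 genes, against 17.6% of all genes tested. The fit used 1 spread per gene for all groups, although 34.6% of the tested genes differed by more than 1.5-fold within Ctrl CLT. Within any other group at most 1.12% did. None of the 4 passed between the genotypes on the CLT libraries alone. The difference in CLT minus that in CLH was -4.34 (SE 0.63, adjusted p = 0.0119) for *Hey1*. It was 0.80 (SE 0.17, adjusted p = 0.0288) for *Heyl*. For *Notch1* it was 1.66 (SE 0.37, adjusted p = 0.0334), and for *Notch3* it was 0.67 (SE 0.16, adjusted p = 0.0398). All 3 of the last had larger values in cKO than in Ctrl in CLT, and *Hey1* had smaller ones. With the same test *Notch2* missed the threshold at -0.69 (SE 0.32, adjusted p = 0.165) and *Hey2* missed it at -0.74 (SE 0.31, adjusted p = 0.136). With a Ctrl CLT library left out, that group held a single library, and its wide spread no longer entered the fit. The calls of such fits are not counted as evidence. Without Ctrl CLT 1 the test called 9 members, all but *Hes1*, against 63.1% of all genes. Without Ctrl CLT 2 it called the same 4, against 46.6% of all genes. With any 1 of the other 6 libraries left out it called 0 members. The share of all genes called then also fell far below 17.6%, so this loss was not particular to the members.

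The step from stem cell region to progenies was then followed within each genotype, with 1 comparison in Ctrl and 1 in cKO, whose CLT and CLH libraries are those of the comparisons above. Scaling by median of ratios moved the median difference of all genes from -0.13 to 0.01 in Ctrl and from -0.18 to 0.01 in cKO. In Ctrl, none of the 10 genes passed the threshold, against 0.00707% of all genes (1 gene, limma, with 1860 genes and 0 members at an unadjusted p under 0.05, which is 13.1% of all genes, and 0 genes with voom). *Jag1* and *Hes1* were higher in both Ctrl CLT libraries than in both Ctrl CLH libraries, against 15.2% of all genes, and *Notch3*, *Hey2* and *Heyl* were lower, against 36.8%, though the *Notch3* difference of -0.10 turned to 0.045 with median-of-ratios scaling. The *Hey1* libraries of Ctrl CLT lay on either side of those of Ctrl CLH, and so did those of *Notch1* and *Notch2*. With either Ctrl CLT library left out, the other stood alone, and the fit held no variation between Ctrl CLT libraries. The calls of such fits show how far the result depends on the library and are not counted as evidence. Without Ctrl CLT 2, 7 members passed, against 53.3% of all genes. Without Ctrl CLT 1, 0 passed, against 3.31%, or 3 when the other 7 libraries shared 1 fit, against 29.1%.

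In cKO, where the 2 libraries of each region lay close together, 9 of the 10 genes passed between CLT and CLH, against 74.0% of all genes, of which 39.0% were higher in CLT, or 51.5% with median-of-ratios scaling. Higher in CLT were *Notch1* by 1.92 (SE 0.095, adjusted p = 3.59e-07), *Notch3* by 0.57, *Jag1* by 0.76, *Heyl* by 0.51 and *Jag2* by 0.30. Lower in CLT was *Hey1*, at -4.56 (SE 0.11, adjusted p = 4.32e-09), followed by *Hey2* at -1.12, *Notch2* at -0.75 and *Dll1* at -0.28. *Hes1* missed the threshold at 0.27 (SE 0.11, adjusted p = 0.0542), and *Jag2*, *Dll1* and *Hes1* changed sides of it between settings, as did *Heyl* without cKO CLT 2. The groups of 6 members were higher in CLT without overlap, against 34.5% of all genes, and those of 4 were lower, against 52.3%. *Notch1* was 4.12-fold higher and *Hey1* 32.9-fold lower in cKO CLT than in cKO CLH by the means of RPKM.

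Of 44 other genes of the pathway, 38 were tested, and *Dll3*, *Aph1c*, *Dtx1*, *Hes3*, *Hes5* and *Hes7* were too low. In CLT, 0 of the 38 passed between the genotypes with limma or with voom, against 1.75% and 0.00% of all genes. With all 8 libraries in 1 fit 16 passed, against 43.7% of all genes, and 10 had an unadjusted p under 0.05 (4 higher and 6 lower), against 36.2%. The median difference of the 38 was -0.12, beside 0.25 for the 10 members and -0.0086 for all genes. By role, the cleaving proteases had 3 genes higher and 5 lower, the nuclear complex 5 higher and 2 lower, and the inhibitors 4 each way. *Rbpj*, which carries the nuclear complex to DNA, was at 9.95 and 13.1 RPKM in Ctrl CLT and 11.1 and 10.2 RPKM in cKO CLT, and the groups overlapped.

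Of these genes, *Nrarp*, a feedback inhibitor of Notch that is itself a Notch target, had the largest difference in CLT. It was at 13.6 and 5.64 RPKM in Ctrl and at 29.7 and 28.3 RPKM in cKO, higher in both cKO libraries, by 1.61 (SE 0.42, adjusted p = 0.0926). *Hes2*, a *Hes* family gene, was at 1.07 and 0 RPKM in Ctrl, where Ctrl CLT 2 had no read on it, and at 3.66 and 2.56 RPKM in cKO. As in *Notch1*, Ctrl CLT 1 lay between Ctrl CLT 2 and the cKO libraries in both genes. *Aph1b*, a subunit of γ-secretase, was at 7.63 and 7.95 RPKM in Ctrl and at 3.005 and 2.71 RPKM in cKO, lower in both cKO libraries, with a difference of -1.19 (SE 0.17, adjusted p = 0.0603).

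The interaction passed for 3 of the 38, against 17.6% of all genes, all with a lower difference in CLT than in CLH: *Aph1b*, *Dll4* and *Numbl*. *Dll4*, a ligand known from vessel sprouts, was at 4.51 and 6.10 RPKM in Ctrl CLT and at 1.90 and 1.76 RPKM in cKO CLT, and at 5.38 and 5.29 RPKM in Ctrl CLH and 6.34 and 6.04 RPKM in cKO CLH. It was lower in cKO in CLT and higher in CLH, with a difference between the regions of -1.33 (SE 0.22, adjusted p = 0.0163). The summed RPKM of 6 endothelial markers was 63.2 and 96.4 in the Ctrl libraries of CLT and 61.3 and 61.8 in the cKO libraries, with 1 of the 6 higher and 2 lower than both Ctrl libraries in cKO. *Numbl*, a relative of the Notch inhibitor Numb, was at 7.79 and 9.63 RPKM in Ctrl CLT and 3.95 and 4.76 RPKM in cKO CLT, with a difference between the regions of -1.07 (SE 0.22, adjusted p = 0.0274). For *Aph1b* that difference was -1.23 (SE 0.17, adjusted p = 0.00987).

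In CLH, 0 of the 38 passed with limma or with voom, 2 had an unadjusted p under 0.05, against 7.26% of all genes, and the median difference was 0.041, beside 0.062 for the members and -0.0053 for all genes. Among the 3 largest were that of *Neurl1b*, a ligand ubiquitin ligase, at -0.26 (SE 0.18, adjusted p = 0.734), and that of *Dtx2*, a Deltex family gene, at 0.24 (SE 0.10, adjusted p = 0.691). Between CLT and CLH, 0 of the 38 passed in Ctrl, where 7 had an unadjusted p under 0.05, against 13.1% of all genes, and 0 passed with voom. In cKO, 27 passed, against 74.0% of all genes, 7 higher in CLT (among them *Hes2*, *Nrarp*, *Dtx2*, *Numb*, *Maml3* and *Psenen*) and 20 lower. Among the lower ones were *Dlk1*, *Numbl*, *Dll4*, *Dtx3*, *Mib1*, *Aph1b*, *Mib2*, *Poglut1*, *Mfng*, *Pofut1*, *Notch4*, *Hes6*, *Adam17*, *Adam10*, *Itch*, *Maml2*, *Psen2*, *Rbpj* and *Ncstn*. They ran from -2.32 for *Dlk1* to 1.97 for *Hes2*.

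**Figure D4:**
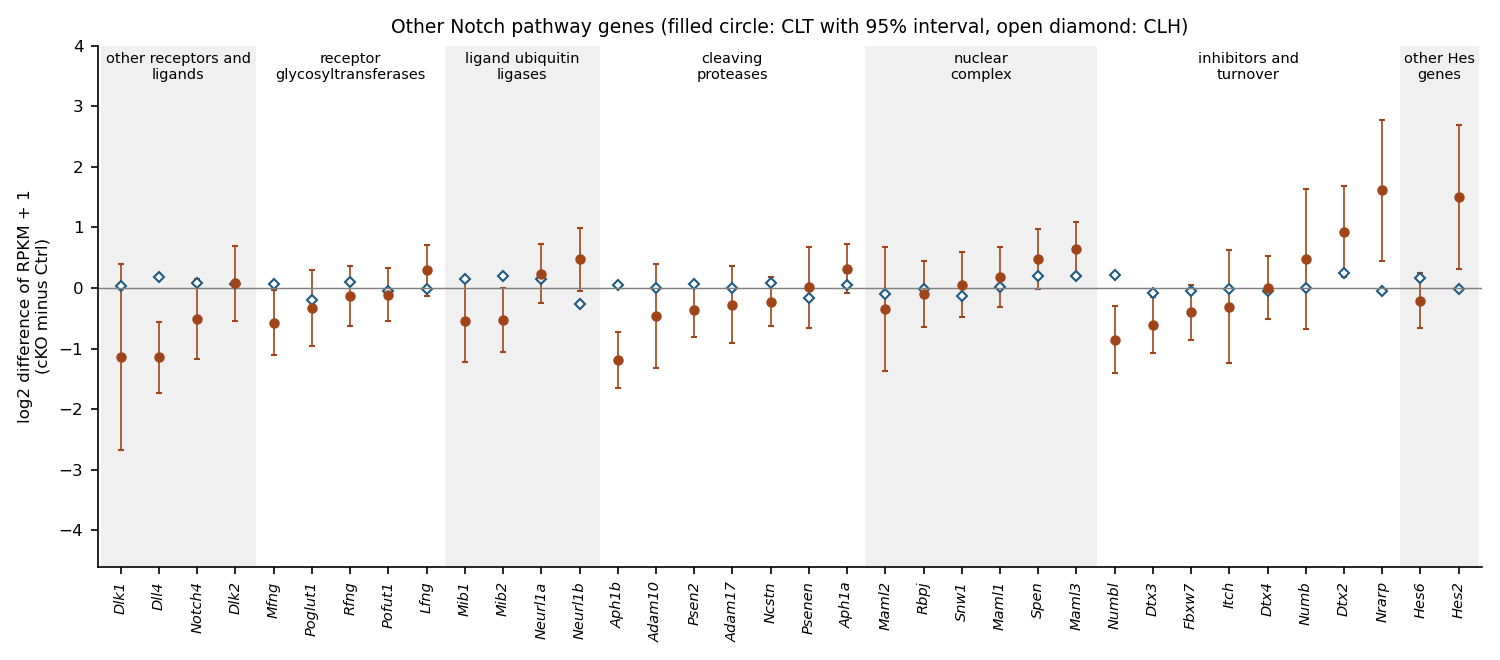
Difference of log2(RPKM + 1), cKO minus Ctrl, for 36 of the 38 other tested Notch pathway genes by role, in CLT with the 95% interval (filled circles) and in CLH (open diamonds). *Nrarp* and *Hes2* lie highest in CLT, at 1.61 and 1.5, *Aph1b* lies lowest, at -1.19, and the CLH values lie between -0.26 and 0.24.

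The genes whose pattern over the 8 libraries was most like that of a member were found among 6618 tested genes by the root mean square difference of centred log2(RPKM + 1). For *Notch1* they were *Slc45a3*, *Zfp296*, *Fam190a*, *2200002K05Rik* and *Pgap2*, at 0.0687 to 0.0782. For *Notch2* they were *4833442J19Rik*, *Med7*, *Fam45a*, *Jmjd1c* and *Dram1*, at 0.0487 to 0.0539. For *Hey1* they were *Fmod*, *Prss35*, *Col11a1*, *Ifitm1* and *Plod2*, at 0.129 to 0.259. *Fmod*, the nearest to *Hey1* and a proteoglycan of extracellular matrix, was at 95.8, 229, 8.15 and 7.68 RPKM in Ctrl CLT 1, Ctrl CLT 2 and the 2 cKO CLT libraries.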

How the data were processed

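RNA-seq of CLH and CLT tissue was compared in 8 libraries, grouped by the sample labels. The authors prepared TruSeq v2 libraries and, per the submitters' processing notes, used FastQC 0.72, Trim Galore 0.4.3.1, STAR 2.6.0b-1, featureCounts 1.6.3 and DESeq2 2.11.40.2 with mm10. They deposited 1 table of RPKM with gene lengths. The annotation, the strand setting and the total behind the RPKM are not given in the sources used here. RPKM times length gave whole reads (within 0.02) for 100.0% of the values checked, and with them 22330512 to 28651106 reads on genes per library, 82.2% to 85.6% of the totals. Reads behind the members' values ran from 23 (*Hey2*) to 9594 (*Notch2*).

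Tests used genes that reached an RPKM of 1 in 2 or more libraries, on log2(RPKM + 1) with limma 3.58.1 (lmFit, eBayes with trend, R 4.3.3) and Benjamini-Hochberg adjustment over all of them, at 0.05. Genotypes were compared within each region and regions within each genotype on 4 libraries, and the interaction on all 8. RPKM are not counts, so the recovered reads entered only an alternative fit (voom). Exact permutation of 2 against 2 libraries allows no p under 0.333 and was not used. Scripts were tested on simulated data with the same dispersion, 0.01, in every library, which did not cover the wider spread of Ctrl CLT.

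The members, the lists of other pathway genes and markers, and the tests were chosen with earlier results of these data known. All 10 members are named. Other pathway genes are named where they passed or were among the 3 largest differences between the genotypes, and so are the 5 genes nearest in pattern to *Notch1*, *Notch2* and *Hey1*. Some of these are not reported here. *Rbpj* was named after its values were seen. Alternatives were pseudocounts of 0.1 and 0.5, 2 filters, 2 scalings, 2 variance models, voom, 1 fit of all libraries, a replicate block and each library left out. Fits of 7 libraries without a Ctrl CLT library and a crossed block were added after seeing the data. Gene models are from GENCODE M21. ChIP-seq and arrays were not analysed here.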

Additional observations from a re-analysis of the deposited data

Results flagged for a closer look

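The limma interaction over all 8 libraries asked whether the genotype difference (cKO minus Ctrl, log2(RPKM + 1)) was the same in CLT and CLH. It passed for 7 of the 48 Notch pathway genes tested, against 17.6% of all genes. Its estimate of the spread was shared by all groups, of which Ctrl CLT varied most. None of the 7 passed between the genotypes on the CLT libraries alone. Of the members, the CLT difference minus the CLH difference was -4.34 for *Hey1* (-4.20 against 0.14), 0.80 for *Heyl* (0.73 against -0.064), 1.66 for *Notch1* (1.72 against 0.061) and 0.67 for *Notch3* (0.84 against 0.17). Of the other pathway genes it was -1.23 for *Aph1b*, -1.33 for *Dll4* and -1.07 for *Numbl*. The adjusted p over the alternatives that keep all 8 libraries ran from 0.00806 to 0.0254 for *Hey1*, from 0.0225 to 0.0449 for *Heyl*, from 0.0331 to 0.0542 for *Notch1* and from 0.0232 to 0.0668 for *Notch3*.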

How the results depend on the processing

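Over the alternatives that keep every library of a comparison, 522 of 550 single-gene values kept their direction and their side of the threshold, 9 changed sign, 12 passed it newly and 7 no longer did. Between the genotypes in CLT, 0 members passed, against 1.75% of all genes, and 6 with all 8 libraries in 1 fit, against 43.7%. With a CLT library left out, its group held a single library, and the calls of those fits are not counted. A lone library was assumed to vary like the others. The number of all genes called moved from 248 to 6183 with all 8 libraries in 1 fit, 1744 with the replicate block, 3 without the filter on low values and 0 with voom. In CLH, 0 members passed in every setting. For the interaction 4 passed, against 17.6% of all genes, and their calls were lost with any 1 of the CLH or cKO CLT libraries left out. The share of all genes called fell far below 17.6% in those fits too. Between the regions 0 passed in Ctrl, against 0.00707% of all genes. In cKO 9 passed, against 74.0%, and fewer did with a library left out.

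With a replicate block, 2 members passed in CLT (*Notch1* and *Hey1*), 2 by the interaction (*Hey1* and *Heyl*), 0 in CLH, 0 between the regions in Ctrl and 10 in cKO. The replicate numbers are not shown to pair libraries, since the deviations of same-numbered libraries correlated at -0.192 from Ctrl CLT to cKO CLT and at 0.0656 between the CLH groups, though at 0.195 between the regions in Ctrl and 0.307 in cKO, and at -0.136 and -0.113 for the other 2 pairs of groups. The block called 12.3% of all genes in CLT, 10.2% by the interaction and 80.9% between the regions in cKO. With the numbers crossed, 0 members and 9 genes passed in CLT.

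Signs that changed were mostly of differences near 0. With median-of-ratios scaling and voom, *Hes1* was 0.043 and 0.048 in CLT and 0.028 and 0.047 in the interaction. *Notch2* in CLH was -0.0014 with quantile normalization and -0.013 with voom. Between the regions in Ctrl, *Notch2* was 0.10 and *Notch3* 0.045 with median-of-ratios scaling, and *Notch3* 0.0087 with quantile normalization. With a library left out, the ranges were -0.13 to 0.12 for *Hes1* and -0.26 to 0.41 for *Dll1* in CLT. In CLH they were -0.049 to 0.056 for *Notch2*, -0.024 to 0.15 for *Jag1*, -0.11 to 0.13 for *Hes1* and -0.15 to 0.017 for *Heyl*. In the interaction they were -0.25 to 0.44 for *Jag2*, -0.45 to 0.23 for *Dll1* and -0.14 to 0.11 for *Hes1*. Between the regions in Ctrl they were -0.17 to 0.68 for *Notch1*, -0.43 to 0.31 for *Notch2*, -0.14 to 0.55 for *Jag2*, -0.50 to 0.17 for *Dll1* and -0.98 to 0.55 for *Hey1*, with the sign turned where Ctrl CLT 1 was left out. The cause of these changes was not tested.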
